A study of Penicillium oxalicum with 9 samples.

Results

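Crystalline cellulose is taken apart by enzymes with different modes of attack. Cellobiohydrolases release cellobiose from the ends of the chains, endoglucanases cut within the chains, and lytic polysaccharide monooxygenases (LPMOs) cleave the crystal surface by oxidation; β-glucosidases then split cellobiose to glucose. Filamentous fungi such as Penicillium oxalicum secrete these enzymes together when they grow on cellulose. The genes described here were 4 of the 11082 features listed in every library, chosen by identifier because they act on the cellulose chain itself: the cellobiohydrolase genes POX_d05671 and POX_d04867, the endo-β-1,4-glucanase gene eg1 (POX_d04883) and the LPMO gene cel61A (POX_b02315). The identifiers are not paired here with the names cbh1 and cbh2.

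RNA was sequenced from mycelium of 3 strains of P. oxalicum HP7-1, with 3 biological replicates a strain. The background strain Δku70, labelled as wild type, lacks ku70 and carries the hygromycin resistance gene hph. The Δprmt3 strain (labelled as the POX03070 knockout; prmt3 codes for a protein arginine methyltransferase) and the ΔcxrA strain (cxrA codes for a transcription factor) were made in that background, so they lack ku70 too, and they carry a G418 resistance gene that Δku70 does not. All cultures grew for 24 h on 1% glucose at 28°C and were then moved for 24 h to medium with 2% Avicel, a microcrystalline cellulose. No library came from another time or carbon source, so the levels below are those of 1 moment on Avicel.

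The files gave FPKM, fragments scaled for transcript length and library size, which is a level per length and lets different genes be set side by side. The labels of the mutants were met by the deleted genes: prmt3 (POX_b03080) was at 0, 0.04 and 0 FPKM in Δprmt3 against 24.9 to 33.4 in Δku70, and cxrA (POX_a00763) was at 0 in all 3 ΔcxrA libraries against 90.7 to 121 in Δku70. Summed FPKM ran from 1036054 to 1096738 a library, and 9846 to 10270 features were above 0. Levels between strains were compared after a further scaling of the libraries by the median ratio over features, with factors of 0.909 to 0.964 in Δku70, 0.822 to 0.863 in Δprmt3 and 1.23 to 1.28 in ΔcxrA. Called means a Benjamini-Hochberg adjusted p under 0.05 over the 10578 features tested with limma and a log2 fold change beyond 1 in either direction; all 4 genes were tested. In such bulk libraries, fewer cells of a kind and less RNA per cell cannot be told apart.

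The cellobiohydrolase gene POX_d05671 was at 8201, 6721 and 12810 FPKM in Δku70, at 8943, 7868 and 7726 in Δprmt3, and at 1842, 2126 and 3008 in ΔcxrA. The other cellobiohydrolase gene, POX_d04867, was at 5898, 5276 and 8765 FPKM in Δku70, at 6849, 6756 and 6199 in Δprmt3, and at 1115, 1221 and 1588 in ΔcxrA. For each of these genes the Δprmt3 libraries lay inside the range of the Δku70 libraries, and every ΔcxrA library lay below all 6 others. Among all features of a library, POX_d05671 ranked between place 2 and place 17 by FPKM in Δku70 and Δprmt3, and between place 32 and place 64 in ΔcxrA. POX_d04867 ranked between place 8 and place 20 in the first 2 strains and between place 84 and place 134 in ΔcxrA.

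The endoglucanase gene eg1 was at 643, 538 and 784 FPKM in Δku70, at 1653, 1171 and 1005 in Δprmt3, and at 624, 615 and 750 in ΔcxrA. The 3 Δprmt3 libraries were the high ones, and the Δku70 and ΔcxrA libraries overlapped. The LPMO gene cel61A was at 4931, 3781 and 8136 FPKM in Δku70, at 1896, 1740 and 1961 in Δprmt3, and at 125, 145 and 189 in ΔcxrA. Its strains formed 3 separate levels, with no library of one strain inside the range of another. Its rank by FPKM went from place 10 to place 30 in Δku70, through place 60 to place 65 in Δprmt3, to place 1057 to place 1632 in ΔcxrA, while eg1 stood between place 245 and place 315 in Δku70 and between place 65 and place 158 in Δprmt3.

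**Figure D1:**
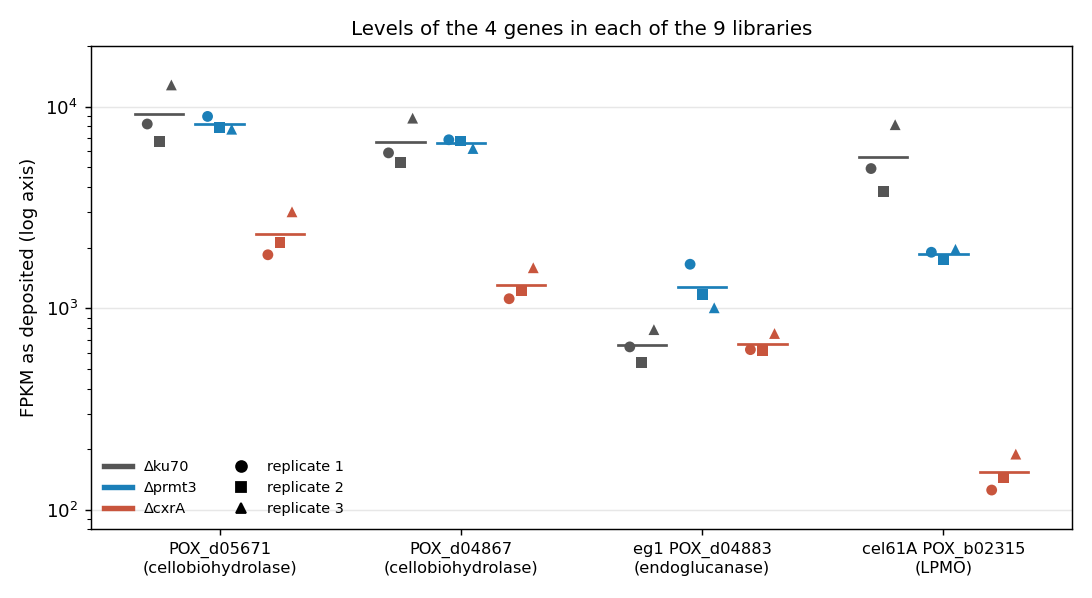
FPKM as deposited, on a log axis, of the 4 genes in each of the 9 libraries; colours mark strains, symbols mark replicate numbers, and horizontal lines are the means of 3 libraries. The cellobiohydrolase genes are low in ΔcxrA alone of the 3 strains, eg1 is high in Δprmt3, and cel61A steps down from 3781 to 8136 in Δku70 to 125 to 189 in ΔcxrA.

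Within a strain the order of the genes could be read library by library. In every Δku70 and Δprmt3 library it ran POX_d05671, POX_d04867, cel61A, eg1, and in every ΔcxrA library eg1 stood above cel61A. The ranges of neighbours overlapped in Δku70 for POX_d05671 and POX_d04867 and for POX_d04867 and cel61A. Within a library those steps had the same sign in each of the 3, with ratios of 1.27 to 1.46 and 1.08 to 1.40. In Δprmt3 and in ΔcxrA no pair among the 4 genes overlapped.

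The Δku70 libraries were the most variable for the cellobiohydrolase and LPMO genes. The SD of the log2 scaled level of POX_d05671 was 0.44 in Δku70, 0.08 in Δprmt3 and 0.38 in ΔcxrA, and that of cel61A was 0.52, 0.10 and 0.31. For eg1 the order differed, with 0.23 in Δku70, 0.33 in Δprmt3 and 0.16 in ΔcxrA. Replicate 3 of Δku70 held the highest scaled value of all 4 genes, as did replicate 3 of ΔcxrA; over the 9678 features whose mean FPKM reached 1, 36.4% and 42.7% were highest in those libraries. In Δku70 replicate 3 the log2 distance to the mean of the other libraries of the strain was 0.86 for cel61A, 0.74 for POX_d05671, 0.60 for POX_d04867 and 0.36 for eg1, with a median of 0.01 over those features.

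Δprmt3 was compared with Δku70 to ask how loss of the methyltransferase gene bears on cellulase transcripts. Of the 4 genes, eg1 was called higher and cel61A was called lower, and the cellobiohydrolase genes were not called; over all features tested, 3.59% were called higher and 7.51% lower. The libraries of the 2 strains did not overlap for eg1 and cel61A, 2 of the 4, where 40.0% of all features did not overlap. Each direction thus held 1 gene of the 4, and the sizes below are what the comparison gives.

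On the scaled FPKM, eg1 averaged 694 in Δku70 and 1510 in Δprmt3 (SD 112 and 361, n = 3 each), a 2.16-fold higher level with a 95% interval of 1.60 to 2.90. The log2 fold change was 1.11 ± 0.19 (standard error), with a limma adjusted p of 0.00306, close to the threshold of 1. The call was lost without Δku70 replicate 2 (log2 fold change 1.00, just under the threshold) and without Δprmt3 replicate 1 (0.93), and on the FPKM without further scaling (0.95). For cel61A the means were 5927 ± 2236 and 2216 ± 161 (SD, n = 3), a 2.56-fold lower level in Δprmt3, and the log2 fold change was -1.36 ± 0.26 (standard error, limma adjusted p = 0.00558). Leaving out 1 library at a time gave -1.58 to -1.07 for cel61A.

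The cellobiohydrolase genes had intervals around 0 in this comparison. POX_d05671 had a log2 fold change of 0.03 with a 95% interval of -0.59 to 0.66, and POX_d04867 had 0.18 with an interval of -0.31 to 0.68, so changes of up to about 1.59-fold and 1.61-fold upwards stayed within the error. Falls to 0.662 and 0.804 times the Δku70 level did so too. With the median-ratio scaling, neither interval reached the log2 threshold of 1 in either direction. The sign of the small difference of POX_d05671 depended on the scaling. It was -0.13 without further scaling and -0.67 ± 0.28 (standard error) after quantile normalization. POX_d04867 was at -0.26 after quantile normalization.

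ΔcxrA was compared with Δku70 because the transcription factor is known as an activator of cellulase genes in this fungus. The cellobiohydrolase genes and cel61A were called lower, 3 of the 4, against 13.2% of all features called lower and 16.4% called higher; eg1 was not called. The libraries of those 3 genes did not overlap between the strains, and 68.7% of all features did not overlap in this comparison, so absence of overlap is common here and the size of the change is what the comparison gives. All 3 comparisons between strains used the same 9 libraries, so the comparisons with Δku70 share its libraries.

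The cel61A transcript moved most of the 4. It averaged 5927 ± 2236 scaled FPKM (SD, n = 3) in Δku70 and 123 ± 26.9 in ΔcxrA, a 46.9-fold lower level, with a log2 fold change of -5.55 ± 0.26 (standard error) and a limma adjusted p of 6.53e-07. Of the 10578 features, 99 had a log2 fold change as low or lower, cel61A included, and among the 157 whose mean FPKM reached 1000 it held place 5 from the lowest. POX_d04867 fell 6.67-fold, from 7031 ± 1797 to 1046 ± 205 (log2 fold change -2.74 ± 0.22, limma adjusted p = 1.41e-05). POX_d05671 fell 5.20-fold, from 9767 ± 3112 to 1860 ± 497 (log2 fold change -2.38 ± 0.28, limma adjusted p = 0.000117). Division by the FPKM of POX_d06005 gave larger falls, at -6.96, -4.15 and -3.79 for cel61A, POX_d04867 and POX_d05671. In the deposited FPKM the cellobiohydrolase transcripts still stood above eg1 in each ΔcxrA library.

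For eg1 the mean was 694 ± 112 scaled FPKM in Δku70 and 530 ± 61.7 in ΔcxrA, a log2 fold change of -0.38 with a 95% interval of -0.81 to 0.05 (adjusted p = 0.109 from limma). That interval holds no change as well as a fall to 0.570 times the Δku70 level. The direction rested on the scaling: it was 0.028 on the FPKM without further scaling and 0.073 after quantile normalization. Divided by the FPKM of POX_d06005, the gene that the study used as its actin reference in RT-qPCR, eg1 was called lower with -1.80 (adjusted p = 1.2e-05 from limma). POX_d06005 itself was at 113 to 129 FPKM in ΔcxrA and at 31.3 to 35.7 in Δku70, and its annotation as actin could not be checked here.

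In the direct comparison of the mutants, ΔcxrA against Δprmt3, all 4 genes were called lower in ΔcxrA, against 12.2% of all features called lower and 17.6% called higher. None of the 4 overlapped between the strains, as did 67.7% of all features. The log2 fold changes were -4.19 for cel61A (18.3-fold lower), -2.92 for POX_d04867 (7.58-fold), -2.41 for POX_d05671 (5.33-fold) and -1.49 for eg1 (2.81-fold), with adjusted p from 3.99e-06 to 0.000192 by limma. For eg1 the log2 fold change without further scaling was -0.92, which is past the adjusted p but not past the fold threshold. The sizes moved with the scaling although the calls of the other 3 genes held. After quantile normalization POX_d05671 was at -1.34 and POX_d04867 at -2.02, and after division by the FPKM of POX_d06005 the 4 genes were at -5.65 (cel61A), -4.38 (POX_d04867), -3.87 (POX_d05671) and -2.95 (eg1).

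**Figure D2:**
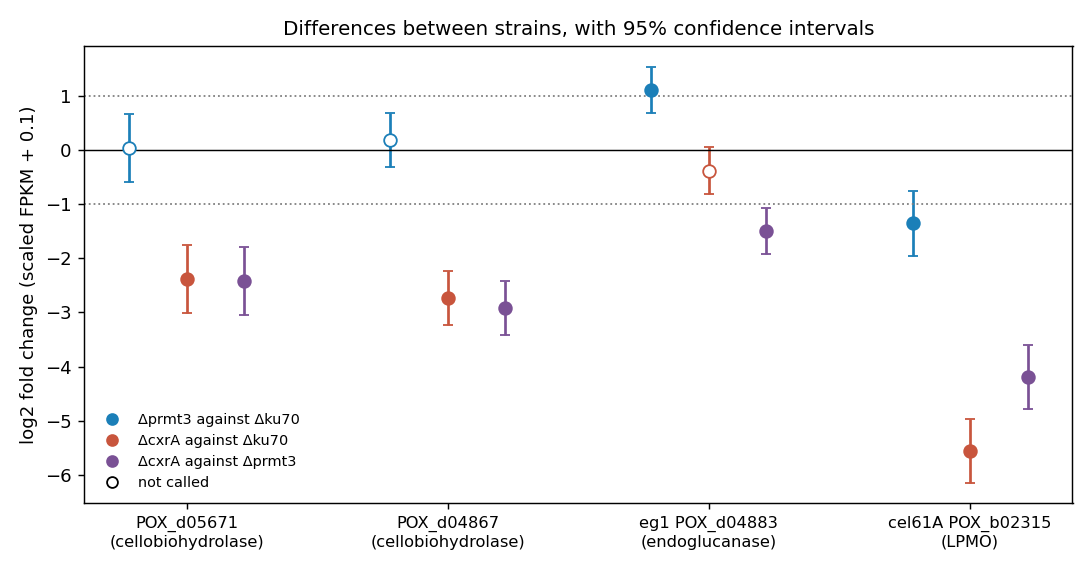
Log2 fold changes of the 4 genes in the 3 comparisons between strains, on scaled FPKM + 0.1, with 95% confidence intervals from limma; filled points were called and open points were not, and dotted lines mark the threshold of 1. The cel61A points run from -1.36 to -5.55, the cellobiohydrolase genes stay near 0 in Δprmt3, and eg1 is at 1.11 in Δprmt3 and at -0.38 in ΔcxrA, where other scalings gave 0.028 and 0.073.

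A ratio of 2 genes within a library does not change when a library is scaled by 1 factor. Each of the 6 ratios between the 4 genes was therefore compared over the 9 libraries with an exact permutation test of all 1680 assignments to 3 strains of 3. The ratio of the 2 cellobiohydrolase genes moved least. POX_d05671 over POX_d04867 was 1.27 to 1.46 in Δku70, 1.16 to 1.31 in Δprmt3 and 1.65 to 1.89 in ΔcxrA. The first cellobiohydrolase gene was above the other in each library, by a wider margin in ΔcxrA. The exact permutation test over the strains gave p = 0.00714 (0.00714 after Benjamini-Hochberg adjustment over the 6 ratios, n = 9 libraries).

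This ratio varied less from library to library than the levels did. In Δku70 its log2 SD was 0.10, where POX_d05671 had 0.44 and POX_d04867 had 0.35, and in ΔcxrA it was 0.10, where the levels had 0.38 and 0.28. In Δprmt3 the ratio had 0.08 and the levels had 0.08 and 0.05. Across replicates of Δku70 and ΔcxrA the 2 transcripts thus deviated together, a description over 3 libraries a strain with no test. This was not particular to the cellobiohydrolase pair. POX_d05671 over cel61A had a log2 SD of 0.09 in Δku70 and 0.07 in ΔcxrA, and POX_d04867 over cel61A had 0.19 and 0.05.

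The ratio of cel61A to eg1 changed most. It was 7.66, 7.03 and 10.4 in Δku70, 1.15, 1.49 and 1.95 in Δprmt3, and 0.201, 0.237 and 0.252 in ΔcxrA. The cel61A transcript was thus well above that of eg1, 1 of several endoglucanase genes, in Δku70. It was little above that of eg1 in Δprmt3 and below it in ΔcxrA, with no overlap of the ratio between strains. The geometric means were 8.24, 1.49 and 0.229, and the exact permutation test gave p = 0.00357, which is the smallest that this design can give (0.00429 adjusted over the 6 ratios).

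The cellobiohydrolase genes stood higher relative to cel61A in both mutants than in Δku70. POX_d05671 over cel61A had a geometric mean of 1.67 in Δku70, 4.38 in Δprmt3 and 15.1 in ΔcxrA, and POX_d04867 over cel61A had 1.22, 3.54 and 8.56. Relative to eg1 they stood lower in both mutants. POX_d05671 over eg1 went from 13.8 to 6.54 and 3.45, and POX_d04867 over eg1 from 10.0 to 5.28 and 1.96, in the same order of strains. Each of these 4 ratios separated the 3 strains without overlap and had an exact permutation p of 0.00357 (0.00429 adjusted over the 6 ratios). For a pair of strains, 3 libraries against 3 cannot give a two-sided exact p below 0.1, and that value was reached by every ratio in every pair except POX_d05671 over POX_d04867 in Δprmt3 against Δku70 (exact p = 0.2). Quantile normalization, which is not 1 factor a library, kept the sign of each ratio difference. Taken back from log2 to a fold between strains, 5 of the 18 moved by over 1.5 times. The log2 difference of POX_d05671 over eg1 went from -1.07 to -1.77 in Δprmt3 against Δku70 and from -0.92 to -0.30 between the mutants, that of POX_d05671 over cel61A from 1.39 to 0.69 and from 1.78 to 2.58, and that of POX_d04867 over cel61A from 1.27 to 1.90 between the mutants.

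**Figure D3:**
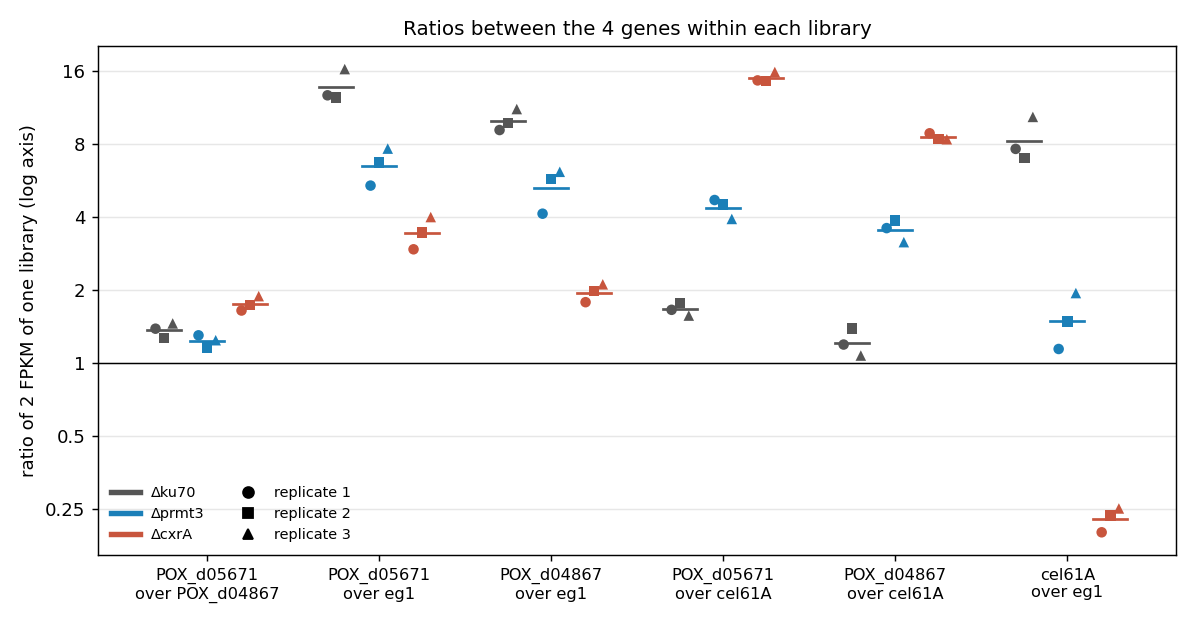
Ratio of the FPKM of 2 genes within each library, on a log axis, for the 6 pairs among the 4 genes; colours mark strains, symbols mark replicate numbers, and horizontal lines are geometric means of 3 libraries. The strains are apart in every ratio except POX_d05671 over POX_d04867 between Δku70 and Δprmt3, and cel61A over eg1 goes from 8.24 in Δku70 to 0.229 in ΔcxrA.

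Summed, the 4 genes held 1.83%, 1.57% and 2.78% of the FPKM of the Δku70 libraries, 1.85%, 1.64% and 1.57% in Δprmt3, and 0.341%, 0.389% and 0.514% in ΔcxrA. The Δprmt3 shares lay within or at the edge of the Δku70 range, and the ΔcxrA shares were below all others. Such a share depends on all other genes, and the 20 features with the highest FPKM held 14.6% to 17.0% in Δku70, 24.9% to 25.5% in Δprmt3 and 11.4% to 13.2% in ΔcxrA.

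The parts of cel61A and eg1 in that sum differed between the strains by more than they did between replicates. The LPMO gene cel61A made up 23.2% to 26.7% of it in Δku70, 9.80% to 11.6% in Δprmt3 and 3.39% to 3.54% in ΔcxrA. The endoglucanase gene eg1 made up 2.57% to 3.30%, 5.95% to 8.55% and 13.5% to 16.8%. A part of a sum also rises when the others fall: eg1 itself was at 538 to 784 FPKM in Δku70 and 615 to 750 in ΔcxrA. The cellobiohydrolase genes together held 70.8% to 73.5% in Δku70, 81.7% to 83.4% in Δprmt3 and 79.8% to 83.0% in ΔcxrA, with the mutants overlapping each other and standing apart from Δku70. POX_d04867 by itself held 28.7% to 32.3% in Δku70 and 28.7% to 30.1% in ΔcxrA, which overlapped, and 35.4% to 38.5% in Δprmt3.

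**Figure D4:**
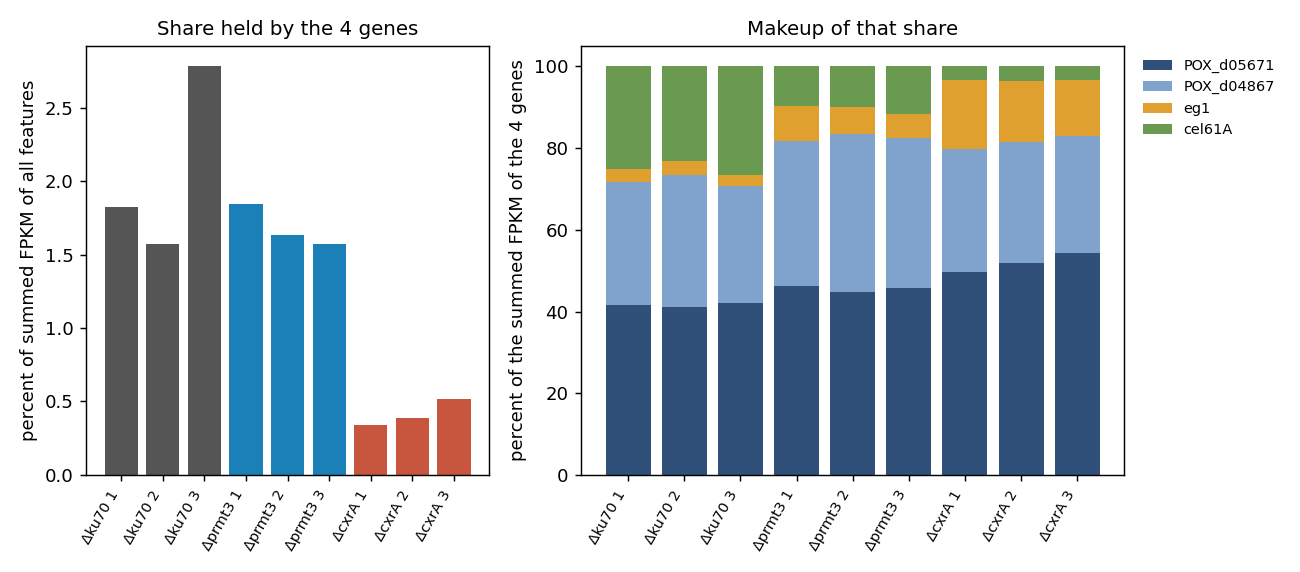
Left, percent of the summed FPKM of all features held by the 4 genes in each library; right, percent of the summed FPKM of the 4 genes held by each of them. The sum is 1.57% to 2.78% in Δku70 and 0.341% to 0.514% in ΔcxrA, and the part of cel61A shrinks from 23.2% to 26.7% in Δku70 to 3.39% to 3.54% in ΔcxrA.

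Other genes of the same functions were taken from the study's annotation: 8 further endoglucanase genes, 1 xyloglucanase gene and 2 further LPMO genes. The study picked these 11 from its own calls on the same libraries, so their counts are not independent evidence of a direction. In ΔcxrA against Δku70, 11 of 11 were called lower (13.2% of all features were), with a median log2 fold change of -1.88 beside 0.06 over all features tested. In Δprmt3 against Δku70 none of the 11 was called (3.59% of all features were called higher and 7.51% lower), at -0.75 to 0.99, with a median of 0.64 beside 0.00 over all features. The paper names eg1 and cel61A among its calls in that mutant, and both are members here. The absence of calls among the 11 thus follows in part from the choice. By kind, the 8 endoglucanase genes were at 0.09 to 0.99 (median 0.70), and the 2 LPMO genes at -0.75 and -0.20.

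Among the listed endoglucanase genes eg1 stood in the middle in Δku70, below 4 of the other 8 by mean FPKM and above 4. The endoglucanase gene POX_a00764 was at 5545 to 7192 FPKM there, POX_a00030 at 1405 to 1890 and POX_c03950 at 1362 to 1710, all above the 538 to 784 of eg1, and the 4 lower genes had means of 70.3 to 225. In ΔcxrA those genes had log2 fold changes of -1.47, -2.21 and -1.88 (called), where eg1 had -0.38. POX_a00764 is the next protein-coding gene to the deleted cxrA in RefSeq (assembly ASM172317v3), and the part of the deletion beside it in its level was not tested. In Δprmt3 these endoglucanase genes had 0.99, 0.78 and 0.48 (limma adjusted p of 0.0112, 0.0139 and 0.0456, short of the fold threshold), and eg1 had 1.11. A higher level in Δprmt3 was thus not particular to eg1. The other 8 were listed because the study called them on these same libraries, and endoglucanase genes that it did not call are absent. Their contrast with eg1 in ΔcxrA, and the place of eg1 among them, thus follow in part from that choice. The difference between eg1 and these genes was not tested.

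The LPMO gene POX_g09366, named after its values were seen, set cel61A in context. It was at 474 to 817 FPKM in Δku70, 410 to 516 in Δprmt3 and 19.4 to 35.9 in ΔcxrA. Its log2 fold change was -4.88 in ΔcxrA (called), beside -5.55 for cel61A, and -0.20 in Δprmt3 (not called), beside -1.36. The remaining LPMO gene, POX_c04131, had -1.39 in ΔcxrA (called) and -0.75 in Δprmt3 (not called).

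The β-glucosidase genes act on the cellobiose that the cellobiohydrolases release. Of 10 of them, chosen by the study in the same way, 8 were called lower and 1 higher in ΔcxrA (median log2 fold change -1.82), where 13.2% and 16.4% of all features were. In Δprmt3, 3 were called higher and 2 lower (median 0.22), where 3.59% and 7.51% of all features were. The highest of them in Δku70, POX_c04019, was at 2328 to 3107 FPKM there, 7256 to 7824 in Δprmt3 and 2199 to 4318 in ΔcxrA. Like eg1, it was called higher in Δprmt3 (log2 fold change 1.61) and not called in ΔcxrA (-0.28). POX_f08346 was called higher in Δprmt3 (1.23) and lower in ΔcxrA (-1.28), and POX_e06772 was called lower in both (-1.24 and -3.06).

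**Figure D5:**
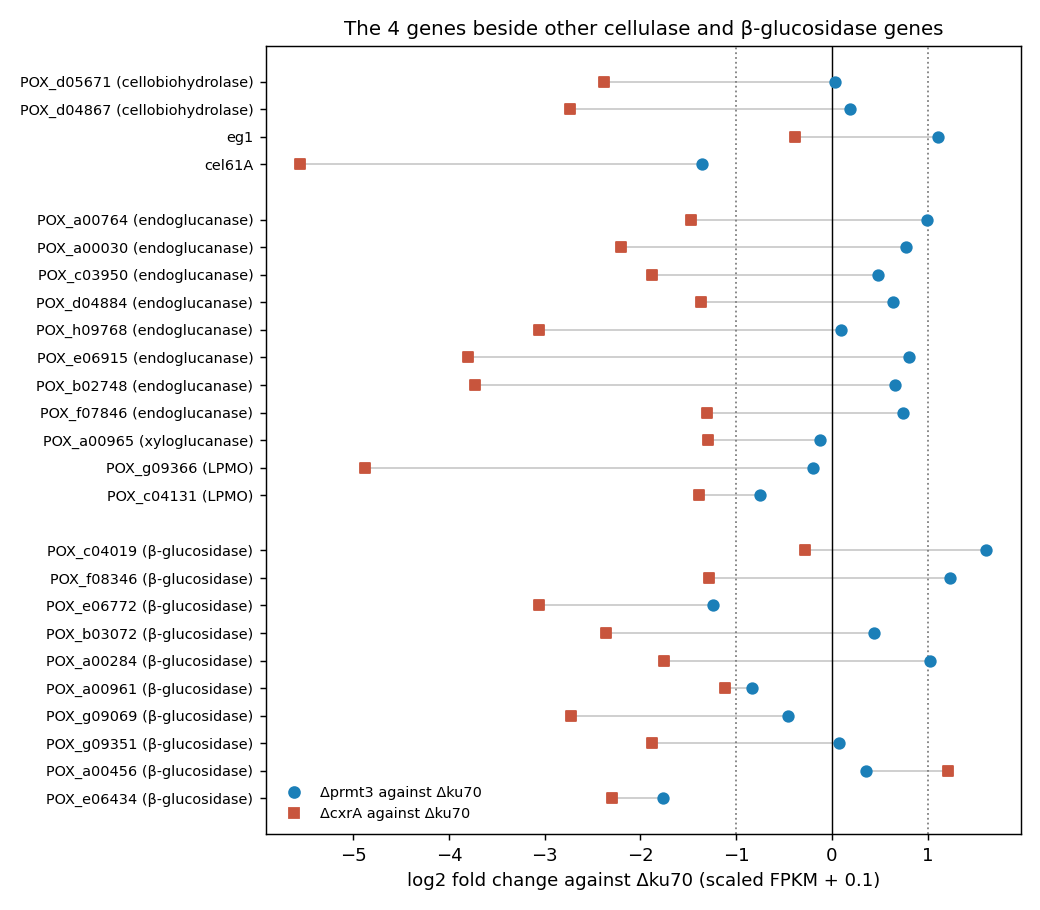
Log2 fold changes against Δku70, on scaled FPKM + 0.1, of the 4 genes (top), 11 other endoglucanase, xyloglucanase and LPMO genes (middle) and 10 β-glucosidase genes (bottom), ordered within each kind by mean FPKM in Δku70; circles are Δprmt3 and squares are ΔcxrA, which share the Δku70 libraries, and dotted lines mark 1 and -1. All 11 of the middle group, picked by the study from its calls on these libraries, are beyond -1 in ΔcxrA. The leftmost of all is cel61A at -5.55.

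On the chromosomes, 3 of the 4 genes were on the same one in RefSeq (assembly ASM172317v3). POX_d04867 and eg1 were separated by 15 genes, and eg1 and POX_d05671 by 783. The gene next to eg1 is the endoglucanase gene POX_d04884, at 846 to 1570 FPKM in Δku70, 1479 to 1645 in Δprmt3 and 546 to 592 in ΔcxrA. Although adjacent, the endoglucanase genes were not called alike. POX_d04884 had a log2 fold change of 0.64 in Δprmt3 (not called) and -1.37 in ΔcxrA (called), where eg1 had 1.11 and -0.38. In Δprmt3 both stood higher, and POX_d04884 missed only the fold threshold (limma adjusted p = 0.0371). The difference between these neighbours was not tested. On the other side of eg1, POX_d04882 was at a mean of 42.9 FPKM in Δku70 and was called higher in Δprmt3 (2.33) and in ΔcxrA (1.37).

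The direct neighbours of the other members were expressed far lower. POX_d05670 and POX_d05672 beside POX_d05671 had mean FPKM of 13.3 and 13.5 in Δku70, and neither was called in ΔcxrA (log2 fold changes -0.41 and 0.12). Beside POX_d04867, POX_d04866 was not called (-0.64), and POX_d04868 was called higher in ΔcxrA (1.05), the opposite direction to the cellobiohydrolase gene. Beside cel61A, POX_b02314 was at a mean of 3.50 FPKM in Δku70 and was called lower in Δprmt3 (-3.24) and ΔcxrA (-2.10), and POX_b02316 was called in neither (-0.09 and 0.81).

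The profile of each gene over the 9 libraries was set against 7364 features whose mean FPKM reached 10 by the root mean square difference of centred log2 scaled FPKM, as a description. POX_d04867 was the sixth closest profile to POX_d05671, with a difference of 0.23, and POX_d05671 held place 12 for POX_d04867. Closest to POX_d05671 were POX_b02562 (0.17), POX_b03340 (0.20) and POX_g08543 (0.20), and closest to POX_d04867 were a transcript outside the annotation (0.09), POX_e06720 (0.12) and POX_g08542 (0.15). For eg1 they were POX_a01898 (0.14), POX_g09349 (0.18) and POX_d05656 (0.19).

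By this measure no feature came as near to cel61A. The difference is not scaled for the size of a gene's changes, and cel61A moved most of the 4. Its distances are therefore not on a par with those of the other members. Its nearest were POX_c03564 (0.36), POX_a00167 (0.45) and POX_g08692 (0.46), and the nearer of the cellobiohydrolase genes, POX_d04867, differed from it by 1.16. The profiles of cel61A and eg1 were 2.12 apart, the widest gap among the 4 genes.

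Beside these results, POX_d06005, the study's actin reference, differed in ΔcxrA against Δku70 (log2 fold change 1.41) but hardly in Δprmt3 (-0.04). Genes of asexual spore formation also differed between the strains. The conidiation regulator gene brlA (POX_c03558) was at 135 to 166 FPKM in Δku70, 2.69 to 8.57 in Δprmt3 and 1.76 to 2.55 in ΔcxrA. Of the other 2 spore formation genes examined, flbD (POX_e07032) was at 133 to 185, 44.7 to 68.8 and 9.79 to 11.3, and abaA (POX_e06958) at 12.6 to 14.5, 3.93 to 5.57 and 21.7 to 25.7, so 3 of 3 were called lower in Δprmt3 and 2 of 3 in ΔcxrA, beside 7.51% and 13.2% of all features. The part of a different state of the mycelium in the levels of the cellulase genes was not tested.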

How the data were processed

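RNA-sequencing libraries of mycelium from 9 cultures were grouped by the genotype in the labels, 3 a strain. The authors trimmed the reads with SOAPnuke, aligned them with HISAT2 and Bowtie2 and quantified them with RSEM, and the deposited values are FPKM per feature; the genome build is not given in the sources used here. Fragment counts are not in these values. From the lowest values times gene length, the estimated worth of 1 fragment lay within 1.41-fold over the libraries. That estimate used 10 to 54 genes a library and only values under a fixed ceiling, which limits its range in advance. It therefore cannot show that depth was alike, and precision was judged from the spread between replicates.

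FPKM were scaled by median-of-ratios factors over the 9335 features above 0 in all libraries. The 504 features with no value above 0 were not tested. log2(scaled FPKM + 0.1) was fitted for the 10578 others with limma 3.58.1 in R 4.3.3 (1 mean a strain, moderated with a trend), with Benjamini-Hochberg adjustment. A fold change on this scale understates changes of low genes. Ratios were tested in Python 3.11.15 by exact permutation. The fit was tested on simulated data. Genes were named as 4 fixed identifiers, the deleted genes, POX_d06005, spore formation genes, at most 3 genes of a list by mean FPKM in Δku70, direct neighbours and the 3 nearest profiles. A list by product name could not be built, since the reference gives no product names; 9718 identifiers were found in it. The members and lists were chosen with earlier results of these data known. Alternatives were other scalings, pseudocounts of 1 and 0.01, a minimum mean FPKM of 1, fits of 6 libraries, a replicate block and leaving out each library.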

Additional observations from a re-analysis of the deposited data

How the results depend on the processing

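Of the fold changes of the 4 genes, those of cel61A (-1.58 to -1.07, -5.78 to -5.27 and -4.36 to -4.04 on leaving out 1 library, for Δprmt3 and ΔcxrA against Δku70 and ΔcxrA against Δprmt3) and those of the cellobiohydrolase genes in ΔcxrA were called under each alternative run, with sizes that moved: between the mutants quantile normalization gave -1.34 and -2.02 for POX_d05671 and POX_d04867 in place of -2.41 and -2.92. Without further scaling of the FPKM, the log2 fold change of eg1 was 0.95 in Δprmt3 and 0.028 in ΔcxrA against Δku70 and -0.92 between the mutants, and that of POX_d05671 in Δprmt3 was -0.13. After quantile normalization POX_d05671 and POX_d04867 were at -0.67 and -0.26 in Δprmt3, and eg1 at 0.073 in ΔcxrA. Leaving out 1 library gave -0.14 to 0.28 for POX_d05671 and 0.93 to 1.26 for eg1 in Δprmt3; eg1 was no longer called without Δku70 replicate 2 or Δprmt3 replicate 1. Division by the FPKM of POX_d06005 gave -1.80 for eg1 in ΔcxrA, 6896 called features in place of 3137 against Δku70 and 7042 in place of 3157 against Δprmt3. It moved the median of all features to -1.30 and -1.33 by construction, since that gene was higher in ΔcxrA. The median of all features was also moved to -0.13, 0.46 and 0.63 without further scaling, and the share of called features that were higher in ΔcxrA went from 55.4% to 75.0% against Δku70 and from 59.1% to 83.7% against Δprmt3 (48.9% with quantile normalization; 7.69% and 8.92% with POX_d06005). The replicate numbers did not pair the libraries, with correlations of the deviations of same-numbered libraries from -0.07 to 0.06; a replicate block left 1114 called features in Δprmt3 in place of 1174, gave eg1 an adjusted p of 0.00971 by limma, and changed no call of the 4 genes. The 6 ratios kept their direction in 108 of 108 values with 1 library left out; a pseudocount of 1 and the block can hardly move them. Quantile normalization, added after seeing the data, kept the sign of all 18 log2 ratio differences and moved 11 beyond the replicate SD: in Δprmt3 against Δku70 to -0.40 (POX_d05671 over POX_d04867), -1.77 and -1.37 (POX_d05671 and POX_d04867 over eg1), 0.69 and 1.097 (over cel61A), between the mutants to 0.68, -0.30, -0.98, 2.58 and 1.90 in the same order, and in ΔcxrA against Δku70 to 3.27 (POX_d05671 over cel61A). Read depth, which the files do not give, and 3 libraries a strain limit the precision. Leaving out the further scaling, or dividing by POX_d06005, changes 1 factor a library, which shifts all 4 genes of a comparison alike. Why quantile normalization or leaving out a library moved eg1 and POX_d05671 was not tested.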
